A study of Bos taurus with 12 samples.

Results

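miR-191, miR-425, miR-423 and miR-22 are 4 widely expressed miRNAs that stand at 13 distinct names among the 1981 distinct names of a blood small RNA table. They were chosen by name, as miRNAs thought to be abundant and stable in these libraries. Levels and differences between groups were therefore in view when the set was drawn up, and both are given below as descriptions with no test. The blood came from 12 Chinese Holstein cows, 6 called heat resistant and 6 called heat stressed by the study, which sorted them by a principal component analysis on rectal temperature and on how far milk yield dropped. The labels give no age, treatment or sampling time, and the fraction of blood that went into the extraction is not stated in them. Each library is taken as 1 cow, since nothing in the labels says that any were pooled. Both groups share breed and tissue, and fewer cells of a type and less RNA per cell cannot be told apart in such samples.

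An miRNA hairpin yields a product from its 5' arm and another from its 3' arm, of which usually 1 is loaded onto Argonaute and represses mRNAs while the other is degraded. miR-191 and miR-425 are known in human and mouse to be cut from 1 primary transcript of the DALRD3 locus, miR-423 lies in the NSRP1 gene, and miR-22 is made from a noncoding host transcript. In the RefSeq table of cattle genes (ARS-UCD2.0) MIR191 and MIR425 are likewise neighbours beside DALRD3, and MIR423 lies within NSRP1. miR-191, miR-425 and miR-423-5p are often used as reference miRNAs for serum and plasma assays, because their level is taken to vary little between people. A reference miRNA serves as the denominator for every other miRNA, so its spread passes into each of them.

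Of the 13 names, 8 are the 2 arms of the 4 hairpins and 5 are further miR-22 rows named for opossum. The 3' arm of miR-191 is listed under a goat name and its 5' arm under the plain cattle name miR-191. Read counts per library ran from 4395454 to 10601301, and the 13 names held 12.8% to 16.1% of them. The values used are CPM, counts per 1000000 of a library total scaled with TMM factors. A filter on low counts kept 756 features of the series, and 10 of the 13 names passed it. The 3 that did not are opossum-named miR-22 rows, each with counts in 1 library.

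The 4 miRNAs differed widely in level. Ranked by mean CPM over the 12 libraries, miR-423-5p stood at place 2 of 756 features, miR-191 at place 5, miR-22-3p at place 8 and miR-423-3p at place 20. miR-425 was far lower, with miR-425-3p at place 84 and miR-425-5p at place 87. Its 2 arms were nearly level, at means of 1099.6 and 1037.4 CPM over the 12 libraries, so which of them counts as the main product is close to a tie. The minor arms miR-22-5p and miR-191-3p stood at places 110 and 147.

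miR-423-5p, which is raised in plasma of people with heart failure, was the most abundant member. Its heat resistant libraries 1 to 6 had 53846, 44413, 48071, 49530, 41888 and 58612 CPM. Its heat stressed libraries 1 to 6 had 62452, 49558, 50043, 51087, 55821 and 53400 CPM. The groups overlapped, although heat resistant libraries 2 to 5 lay below every heat stressed library. Group means were 49393 ± 6127 and 53727 ± 4869 CPM in heat resistant and heat stressed cows (SD, n = 6 each), a log2 fold change of 0.12 ± 0.11 (SE, heat stressed over heat resistant).

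miR-423-3p, the other arm of that hairpin, had 16747, 14641, 14659, 13842, 14726 and 17625 CPM in heat resistant libraries 1 to 6. In heat stressed libraries 1 to 6 it had 14651, 13310, 12256, 13729, 15161 and 13645 CPM. Here heat resistant libraries 1 and 6 lay above all of the heat stressed ones, and the groups overlapped below them. The log2 fold change was -0.16 ± 0.10 (SE), so the 2 arms of miR-423 had differences of opposite sign.

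miR-191, a miRNA of blood cells that restrains red cell enucleation in mouse, had nearly equal group means of 39827 ± 5030 CPM in heat resistant and 40277 ± 2968 CPM in heat stressed cows (SD, n = 6 each). Heat resistant libraries 1 to 6 had 40683, 33190, 39115, 36952, 40702 and 48323 CPM. Heat stressed libraries 1 to 6 had 40816, 40885, 36666, 37746, 45168 and 40381 CPM. Heat resistant libraries 2 and 6 were the lowest and the highest of all 12, so the heat stressed values lay within the range of the other group. The log2 fold change was 0.02 ± 0.10 (SE). Its 3' arm, which was far scarcer, stood at 232 ± 32.9 CPM in heat resistant and 183 ± 20.2 CPM in heat stressed cows (SD, n = 6 each), with a log2 fold change of -0.34 ± 0.14 (SE).

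The arms of miR-425 spread unequally. miR-425-5p had 945, 835, 1102, 1091, 1008 and 1025 CPM in heat resistant libraries 1 to 6, and 1123, 1112, 925, 1163, 990 and 1132 CPM in heat stressed libraries 1 to 6. miR-425-3p had 1077, 802, 859, 1241, 1116 and 1721 CPM in the former and 974, 967, 1002, 1075, 1309.6 and 1052 CPM in the latter. Heat resistant library 6 thus stood far above the others for the 3' arm and in the middle for the 5' arm. Log2 fold changes were 0.10 ± 0.12 for miR-425-5p and -0.10 ± 0.17 for miR-425-3p (SE).

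miR-22, a regulator of blood cell formation that is also abundant in liver and muscle, was made almost wholly from its 3' arm. miR-22-3p had 33778, 35847, 26981, 26361, 26512 and 26478 CPM in heat resistant libraries 1 to 6. In heat stressed libraries 1 to 6 it had 30837, 23738, 27269, 31925, 29052 and 27475 CPM. Heat resistant libraries 1 and 2 were above all 10 others, while the remaining 4 of that group lay between 26361 and 26981 CPM. The log2 fold change was -0.05 ± 0.12 (SE), and that of miR-22-5p, at 498 ± 64.3 and 497 ± 65.3 CPM in heat resistant and heat stressed cows (SD, n = 6 each), was -0.0032 ± 0.13 (SE).

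**Figure D1:**
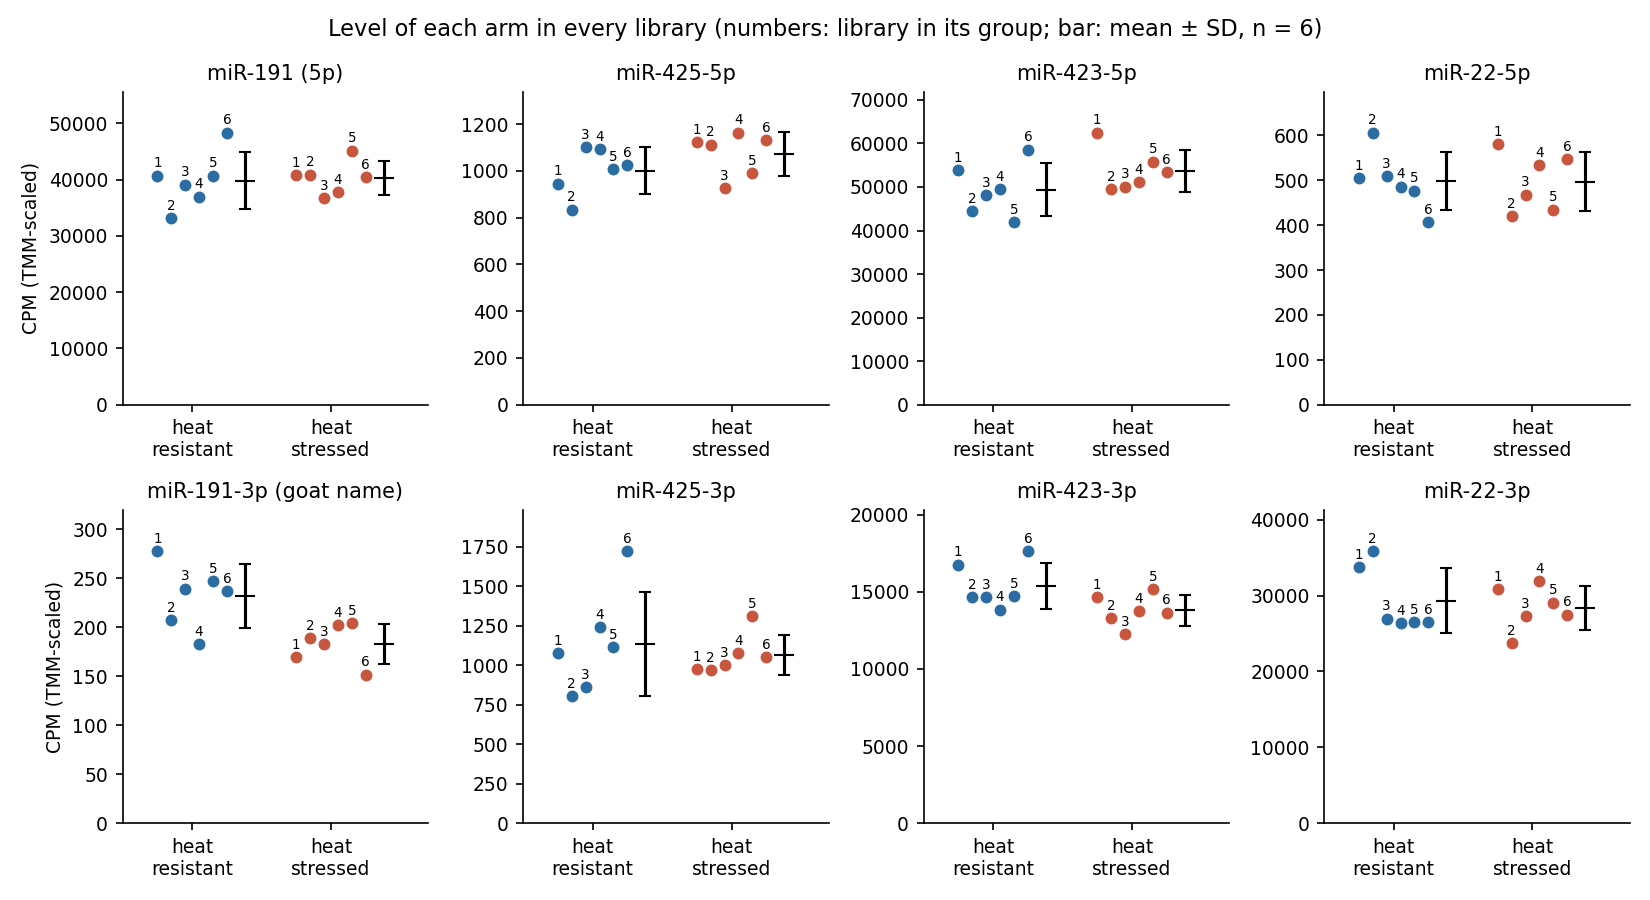
CPM (vertical axes, from 0) of the 5' arm (top) and the 3' arm (bottom) of the 4 hairpins in each of 6 heat resistant (blue) and 6 heat stressed (red) libraries, numbered by library, with mean ± SD. The groups overlap in all 8 panels, heat resistant library 6 stands at 1721 CPM for miR-425-3p, and heat resistant libraries 1 and 2 lead for miR-22-3p.

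The groups overlapped in all 10 members that passed the filter, beside 1.06% of the 756 features whose groups did not overlap. edgeR called 0 of the 10 at an adjusted p under 0.05, and it called 0% of all features, so the members' count says nothing about them in particular. Over all features 146 had an unadjusted p under 0.05, DESeq2 called 54 (7.14%) and limma-voom 0. The 10 members were also uncalled by DESeq2 and limma-voom. As these miRNAs were put together as stable ones, the small fold changes of the main products are a description of that choice. Not every member had a small one: that of miR-191-3p, at -0.34, was about as large as the median absolute log2 fold change of all features (0.33).

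Judged as references by their spread over all 12 libraries, 5 of the 6 products with a mean above 1000 CPM were among the steadier features and miR-425-3p was not. The SD of log2 CPM was 0.14 for miR-191, 0.14 for miR-423-3p, 0.14 for miR-425-5p, 0.16 for miR-423-5p and 0.17 for miR-22-3p, against a median of 0.29 over the 87 features at 1000 CPM or more. Ordered from the smallest SD among those 87, they took places 5, 7, 9, 10 and 11. miR-425-3p, with an SD of 0.29, took place 45. Without heat resistant library 6 the SD of miR-425-3p fell to 0.18. The median SD over all 756 features was 0.49, which includes many scarce features.

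Within groups, pooled SDs of log2 CPM were 0.12 for miR-423-3p, 0.14 for miR-425-5p, 0.15 for miR-191, 0.15 for miR-423-5p, 0.18 for miR-22-3p and 0.30 for miR-425-3p. miR-423-3p had the smallest of these, at place 5 of 87. For the difference between group means the order was another: miR-191 took place 6, miR-22-3p place 11 and miR-425-3p place 18, while miR-425-5p, miR-423-5p and miR-423-3p took places 28, 32 and 40 of 87 from the smallest. The product that varied least between cows of 1 group was therefore not the one with the closest group means. Coefficients of variation of miR-191 were 12.6% in heat resistant and 7.37% in heat stressed cows, and those of miR-425-3p were 29.1% and 12.0%. SDs of log2 CPM were larger in heat resistant cows for 7 of the 8 arms, with miR-22-5p as the exception, and the medians over the 87 features also were, at 0.29 against 0.23.

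**Figure D2:**
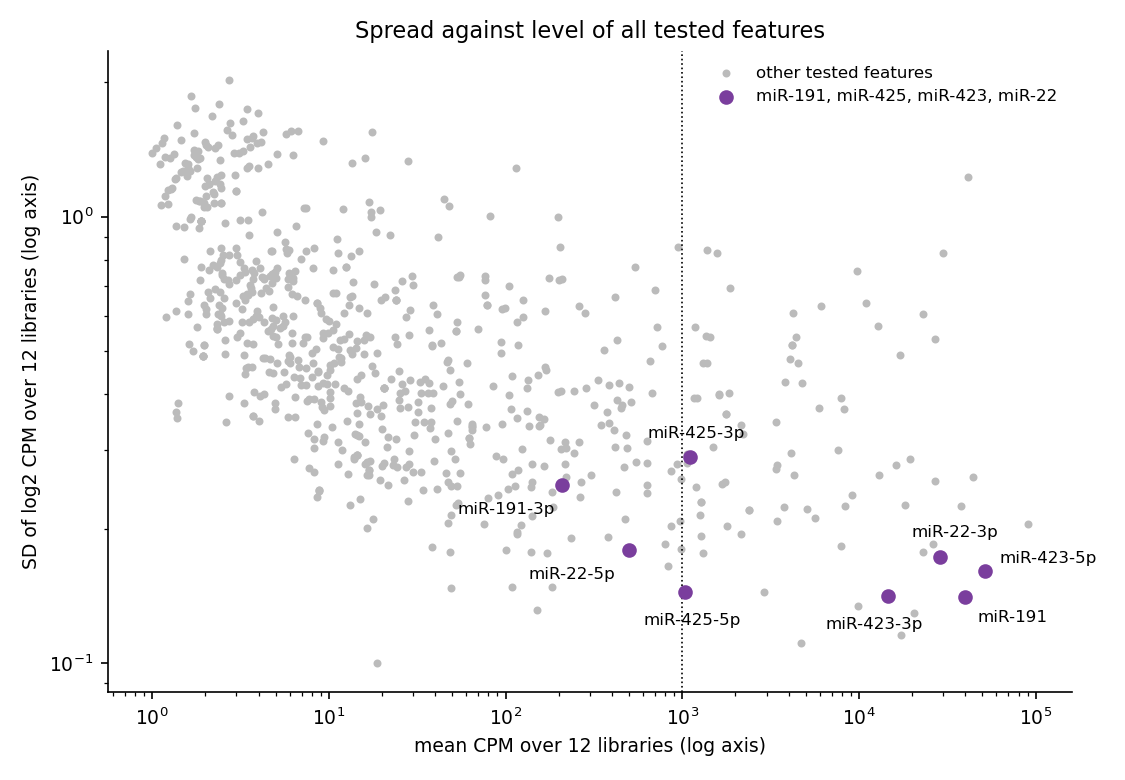
SD of log2 CPM over 12 libraries against mean CPM (both log axes) of the 756 tested features (grey) and the 8 arms (purple), with a dotted line at 1000 CPM. miR-191, miR-423-3p, miR-425-5p, miR-423-5p and miR-22-3p lie at the lower edge with SDs of 0.14 to 0.17, and miR-425-3p lies above them at 0.29.

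Counting error was small beside these spreads. At the lowest count of each arm, a Poisson count alone gives an SD on the log2 scale of 0.0031 for miR-423-5p, 0.0034 for miR-191 and 0.045 for miR-191-3p. Those values cover counting error only, since reads without molecular identifiers are not independent molecules.

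A measure that needs no library scaling kept miR-191, miR-423-3p, miR-423-5p and miR-425-3p near their places and moved miR-425-5p and miR-22-3p. For each of the 87 features the SDs of its log2 ratios to the other 86 were averaged, and miR-425-5p came at place 2 with a mean SD of 0.37. miR-191 came at place 5 (0.38), miR-423-3p at place 9 (0.39), miR-423-5p at place 10 (0.39), miR-22-3p at place 19 (0.41) and miR-425-3p at place 45 (0.46). The position of miR-22-3p was thus lower on this scale than on CPM (place 11), and that of miR-425-5p was higher (place 9 on CPM).

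Ratios within a library show how far the members could stand in for each other. The log2 ratio of miR-191 to miR-423-5p was -0.31 ± 0.15 in heat resistant and -0.41 ± 0.12 in heat stressed cows (SD, n = 6 each). That of miR-191 to miR-423-3p was 1.37 ± 0.11 and 1.55 ± 0.06 in the same order. That of miR-191 to miR-22-3p was 0.44 ± 0.33 and 0.51 ± 0.19. The widest of the 6 ratios between the main products was that of miR-425-3p to miR-22-3p, at -4.72 ± 0.53 and -4.74 ± 0.19 (SD, n = 6 each), which ran from -5.48 to -3.94 over the 12 libraries. Although the pair comes from neighbouring genes, the log2 ratio of miR-191 to miR-425-5p, with an SD of 0.17 over all libraries, was no steadier than that of miR-191 to miR-423-5p, with 0.14.

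The ratio of 5' to 3' products was higher in heat stressed cows for miR-423 and miR-191 in unadjusted tests. This ratio needs no scaling. Its group difference comes from the levels of the 2 arms, and levels were in view when the set was drawn up. These tests are therefore not independent of that choice. For miR-423 its log2 was 1.68, 1.60, 1.71, 1.84, 1.51 and 1.73 in heat resistant libraries 1 to 6, and 2.09, 1.90, 2.03, 1.90, 1.88 and 1.97 in heat stressed libraries 1 to 6. All 6 heat stressed libraries lay above all 6 heat resistant ones. Group means were 1.68 ± 0.11 and 1.96 ± 0.09 (SD, n = 6 each), a difference of 0.28, with an exact permutation p of 0.00216, 2-sided and unadjusted, the smallest that 6 against 6 can give. The 3' arm held 21.8% to 26.0% of the 2 arms' counts in heat resistant and 19.0% to 21.4% in heat stressed libraries.

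Other hairpins also differed in this way. Of 152 hairpins with both arms measured, 2.63% had groups that did not overlap in this ratio, and 15.8% had an unadjusted exact permutation p under 0.05. By size of the difference miR-423 took place 76 of 152, near the middle. Adjusted over the 152 hairpins the exact permutation p of miR-423 was 0.0823, and limma fitted across the 152 gave 0.28 ± 0.11 (SE) with an adjusted p of 0.264. Neither approach called any hairpin at an adjusted p under 0.05 (0%), while 17.1% had an unadjusted p under 0.05 in limma. The exact test could hardly pass here, as full separation gives at best 0.00216 before adjustment and 4 of the 152 hairpins were fully separated. The miR-423 arm ratio therefore separated these libraries without passing an adjustment over all hairpins.

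For miR-191 the log2 ratio of 5' to 3' products was 7.19, 7.32, 7.35, 7.66, 7.36 and 7.67 in heat resistant libraries 1 to 6. In heat stressed libraries 1 to 6 it was 7.91, 7.75, 7.65, 7.54, 7.79 and 8.06. All 6 heat stressed libraries were above the heat resistant median and 4 were above all heat resistant libraries. Means were 7.43 ± 0.19 and 7.78 ± 0.18 (SD, n = 6 each; exact permutation p = 0.0152, unadjusted; 0.192 adjusted over the 152 hairpins; limma adjusted p = 0.264). Without heat resistant libraries 1 and 2, a choice made after seeing the data, the difference was 0.27 with an exact permutation p of 0.0667.

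miR-425 and miR-22 gave no such separation. The log2 arm ratio of miR-425 was -0.14 ± 0.36 in heat resistant and 0.02 ± 0.24 in heat stressed cows (SD, n = 6 each; exact permutation p = 0.407), and in heat resistant library 6 the 3' arm held 62.7% of the counts against 43.8% to 57.0% in the other 11. The arm ratio of miR-22 was -5.88 ± 0.14 and -5.84 ± 0.14 (SD, n = 6 each; exact permutation p = 0.634). The 3' arm gave 98.1% to 98.5% of the miR-22 counts in the 12 libraries.

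**Figure D3:**
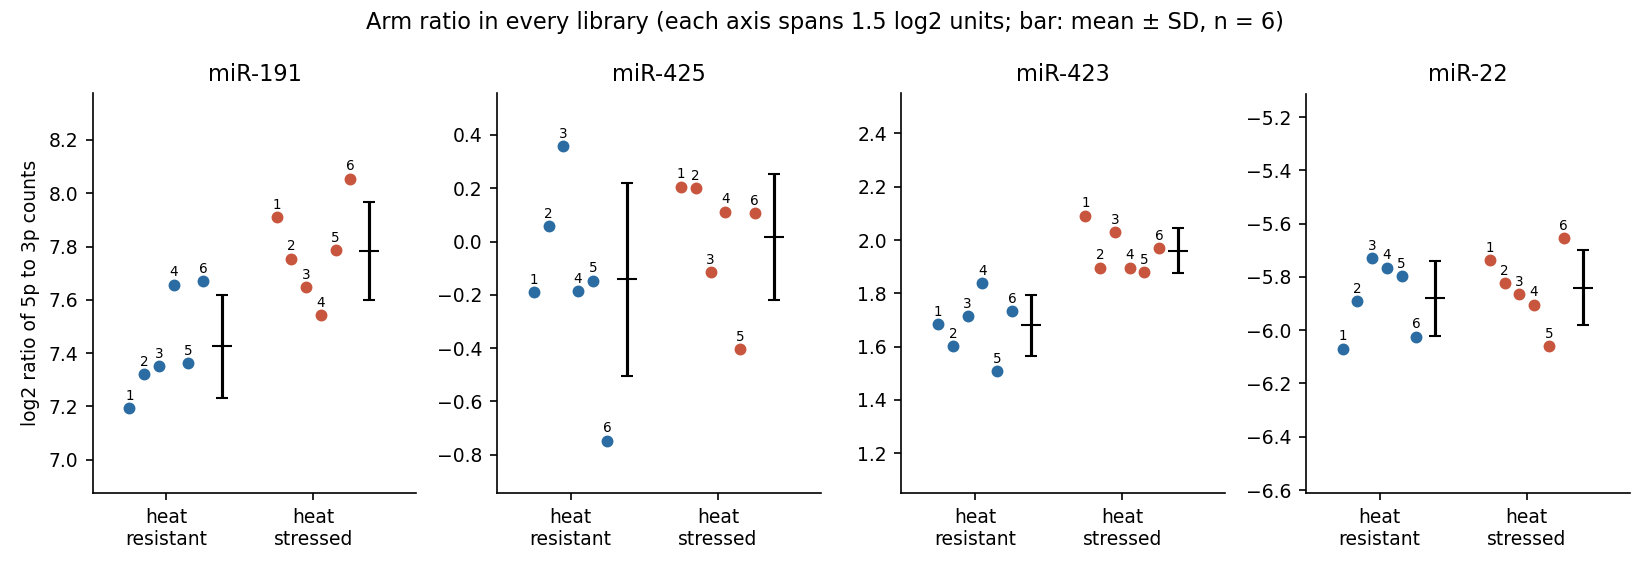
Log2 ratio of 5' to 3' counts (vertical axes, each spanning 1.5 units) of the 4 hairpins in 6 heat resistant (blue) and 6 heat stressed (red) libraries, numbered by library, with mean ± SD. For miR-423 the heat stressed libraries sit between 1.88 and 2.09, all above the heat resistant ones, while the groups overlap for the other 3 hairpins.

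Summed levels of some lists of blood cell markers also differed in their medians between the groups. All 5 red cell markers (miR-451, miR-144, miR-486, miR-16 and miR-363) had counts in every library, and their summed level ran from 23424 to 103512 CPM (median 28583) in heat resistant and from 33797 to 87441 CPM (median 54224) in heat stressed libraries. The 5 lymphocyte markers (miR-150, miR-342, miR-155, miR-181a and miR-29a), also present in every library, summed to 17598 to 23301 CPM (median 18744) and 21405 to 41385 CPM (median 32388). The 4 myeloid markers (miR-223, miR-142, miR-23a and miR-27a), present in every library too, summed to 36362 to 54994 CPM (median 46657) and 46960 to 60357 CPM (median 56299). Of these, miR-23a was not higher in heat stressed libraries, at 5886 to 12751 CPM against 6023 to 23772 CPM in heat resistant ones. The platelet list (miR-126, miR-223, miR-21 and miR-197) had near medians of 103872 CPM in heat resistant and 106640 CPM in heat stressed libraries. Heat resistant libraries 1 to 6 had 13549, 12959, 15260, 63304, 17326 and 17213 CPM of the red cell miRNA miR-486. Heat stressed libraries 1 to 6 had 41885, 30962, 36336, 56259, 35549 and 15847 CPM of it. The arm ratios of every library are given above, and some are set beside miR-486 here. Heat resistant library 5, with the next most miR-486 of its group after library 4, had the lowest miR-423 log2 arm ratio of the group (1.51). Heat resistant library 4 had 63304 CPM of miR-486, against 12959 to 17326 CPM in the other 5 of its group, and the highest miR-423 log2 arm ratio of the group (1.84). Heat stressed library 4 had the most miR-486 of its group, 56259 CPM, with log2 arm ratios of 1.90 for miR-423 and 7.54 for miR-191, the latter the lowest of the group. Heat stressed library 6 had the least miR-486 of its group, 15847 CPM, with arm ratios of 1.97 and 8.06, the latter the highest of the group. Heat stressed libraries 1 and 3 had 41885 and 36336 CPM of miR-486 and the highest miR-423 log2 arm ratios of the group (2.09 and 2.03). The part of these cells in the arm ratios was not tested.

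The count of miR-423-5p may include reads shared with another name, an inference from fractional parts alone. Its values ended in 0.5 in 9 of 12 libraries, and all 12 were whole after doubling, while every other member had whole counts. Fractional parts equal to its own in all 12 libraries were found in just 1 other name of the table, miR-11971. miR-11971 stood at 30.7 ± 6.15 CPM in heat resistant and 47.3 ± 4.50 CPM in heat stressed cows (SD, n = 6 each), or 0.0501% to 0.0940% of miR-423-5p. With its counts added to the miR-423 5' arm or taken off it, an alternative made after seeing the data, the difference in arm ratio stayed at 0.28 (exact permutation p = 0.00216 in both).

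The 2 libraries with the most miR-22-3p were also those with the most of a liver miRNA. miR-122, which is made by hepatocytes, stood at 136109 and 145867 CPM in heat resistant libraries 1 and 2 and at 8588 to 41856 CPM in the other 10. Of the other 10 libraries, heat stressed library 1 had the most miR-122 (41856 CPM) with 30837 CPM of miR-22-3p. Heat stressed library 2 had the least miR-22-3p (23738 CPM) at 16693 CPM of miR-122. Heat stressed library 4 had 31925 CPM of miR-22-3p at 17974 CPM of miR-122, and heat stressed library 5, with the least miR-122 (8588 CPM), had 29052 CPM of miR-22-3p. An opossum-named miR-22-3p row had 99.8, 119, 60.6, 39.2, 39.2 and 28.7 CPM in heat resistant libraries 1 to 6 and 86.0, 27.6, 42.6, 49.0, 26.2 and 37.8 CPM in heat stressed libraries 1 to 6. Its 3 highest libraries, heat resistant 2 and 1 and heat stressed 1, were the 3 highest for miR-122. That row held 0.331% of the 2 miR-22-3p rows in heat resistant library 2 and 0.0901% in heat stressed library 5, where miR-122 was lowest.

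The liver list (miR-122, miR-885, miR-192 and miR-194, all present in every library) summed to 47012 to 203727 CPM (median 70135) in heat resistant and 54607 to 93184 CPM (median 64434) in heat stressed libraries. Without heat resistant libraries 1 and 2, chosen after seeing the data, the SD of miR-22-3p over the remaining 10 was 0.12. Those libraries also had the most miR-22-3p, so a lower SD follows from leaving them out whatever their miR-122. The part of liver RNA in the miR-22 level was not tested. The other opossum-named row that passed the filter, an isoform of miR-22-3p, ran from 0 to 6.12 CPM, again with heat resistant libraries 1 and 2 highest.

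**Figure D4:**
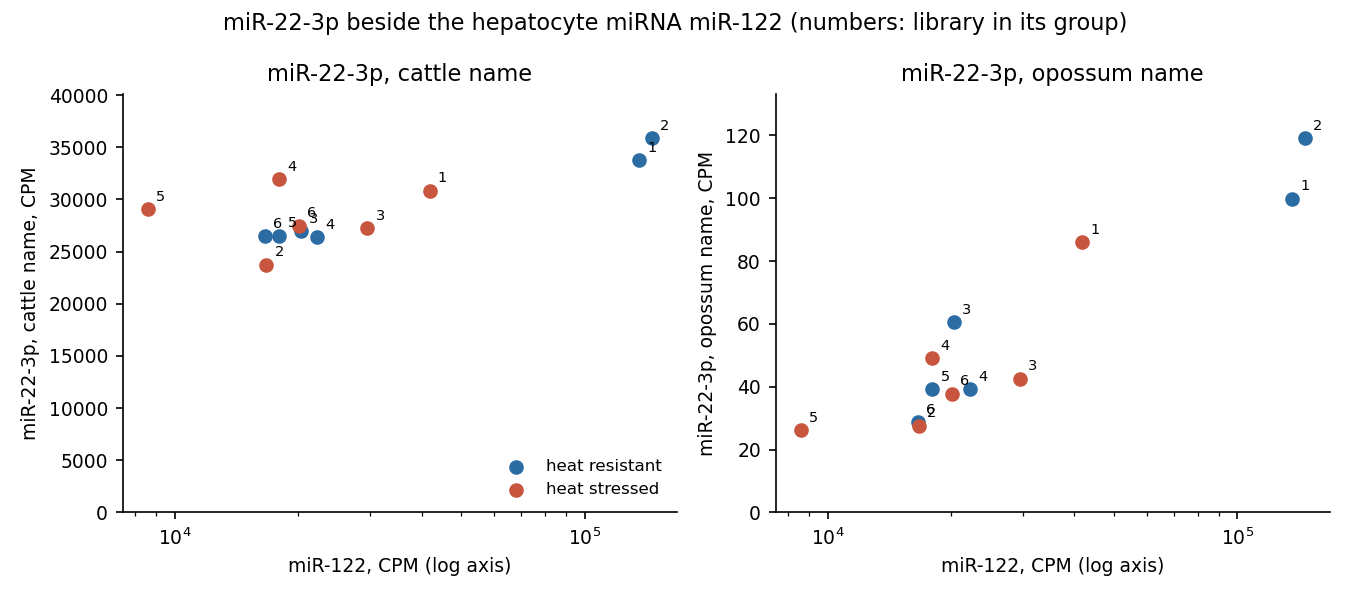
CPM of miR-22-3p under its cattle name (left) and under an opossum name (right) against CPM of miR-122 (log axes across), for 6 heat resistant (blue) and 6 heat stressed (red) libraries numbered within their group. Heat resistant libraries 1 and 2, at 136109 and 145867 CPM of miR-122, are at the top right of both panels.

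Across the 12 libraries the members did not vary together as a block. Among 10 relations computed on log2 CPM, which share library and scaling, the closest was that of miR-191 with miR-425-3p, at a Pearson r of 0.76 (permutation p = 0.00576, adjusted over the 10 relations 0.0576) and a Spearman rho of 0.47 (permutation p = 0.127, adjusted 0.592). Without heat resistant libraries 2 and 6, the farthest from the median of miR-191, r over the other 10 was 0.29, a lower value over a narrower range of miR-191. Within groups r was 0.82 in heat resistant and 0.63 in heat stressed cows (n = 6 each), and the heat stressed group holds neither of those libraries.

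miR-191 with miR-423-5p gave r = 0.58 (permutation p = 0.0444, adjusted 0.222; rho = 0.57, permutation p = 0.0577, adjusted 0.577; r = 0.31 without the same 2 libraries). The other 4 pairs had r from -0.40 to 0.44. The log2 ratio between miR-451 and miR-23a was taken as a rough measure of red cell content. Its denominator varied too, as miR-23a ran from 5886 to 23772 CPM. Heat resistant library 5, with 7058 CPM of miR-451 and the most miR-23a, had a ratio of -1.75. With this ratio r ran from -0.18 for miR-191 to 0.38 for miR-423-5p, and the adjusted permutation p of the 4 ran from 0.444 to 0.966. For miR-423-5p this r was 0.65 without heat resistant library 4 and heat stressed library 4, the farthest on that ratio, and it was 0.16 and 0.38 within heat resistant and heat stressed cows. For miR-22-3p it was -0.26 within heat resistant and 0.87 within heat stressed cows (n = 6 each). None of the 10 relations had an adjusted p under 0.05.

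The features most like each member were sought among the 81 other features with at least 1000 CPM, by Pearson r over the 12 libraries. They were miR-221 (0.79), miR-151-3p (0.69) and miR-330 (0.66) for miR-191, and miR-186 (0.78), miR-221 (0.76) and miR-330 (0.75) for miR-425-3p. For miR-423-5p they were miR-2284x (0.67), miR-30e-5p (0.62) and miR-342 (0.59). For miR-22-3p they were miR-193a-5p (0.83), miR-30a-5p (0.80) and miR-99a-5p (0.79). miR-425-5p, the other arm of the miR-425 hairpin, had none of the features of miR-425-3p among its 3, which were let-7i (0.73), miR-93 (0.68) and miR-148b (0.67).

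Used as a denominator, the 4 main products (miR-191, miR-425-3p, miR-423-5p and miR-22-3p) gave library factors that departed from the TMM factors by -0.14 to 0.26 on the log2 scale. The largest departures were 0.26 in heat resistant library 6 and 0.15 in heat stressed library 5, where the 13 names held 16.1% and 15.1% of counts. Each product weighs equally in this factor, whatever its level. In that order miR-425-3p had 1721 and 1309.6 CPM (mean over all libraries 1099.6) and miR-191 had 48323 and 45168 (mean 40052). miR-423-5p had 58612 and 55821 (mean 51560) and miR-22-3p had 26478 and 29052 (mean 28854). miR-425-5p, which is not among the 4, had 1025 and 990 (mean 1037.4). Scaled to the 4 products, the median SD of log2 CPM over the 87 features at 1000 CPM or more was 0.33, against 0.29 with TMM, 0.29 with DESeq2 size factors and 0.30 with library totals. Over all 756 features it was 0.52 against 0.49 with TMM. The median log2 fold change of all features was -0.020 with this scaling and -0.0019 with TMM, and edgeR called 0 features (0%) with it, as with TMM. With miR-425-5p in place of miR-425-3p edgeR also called 0 (0%), and the factors and SDs of that choice are not given.

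**Figure D5:**
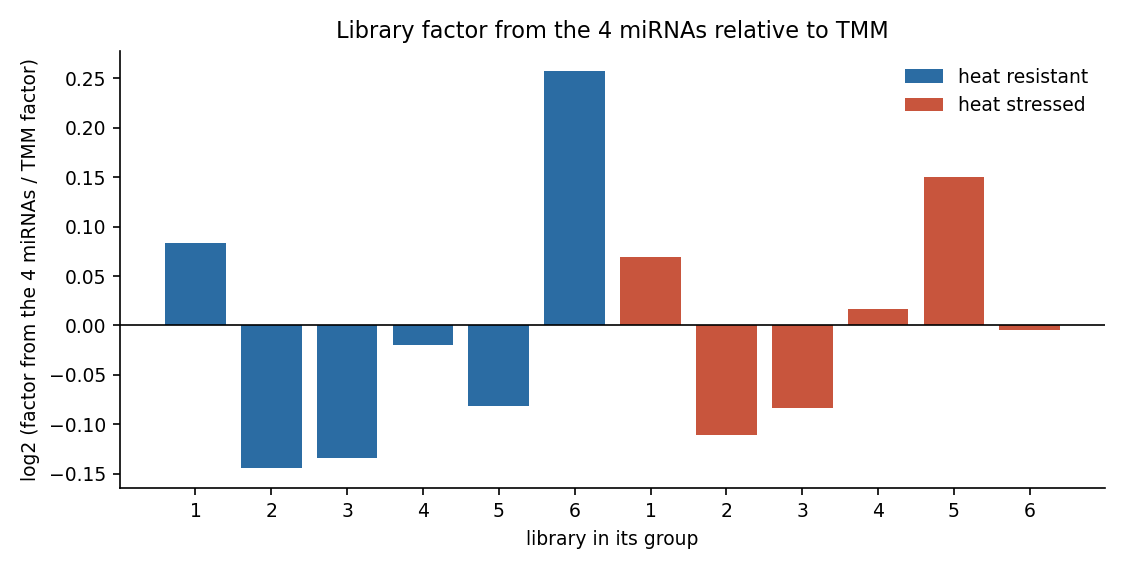
Log2 of the library factor from the geometric mean of the 4 main products over the TMM factor (bars from 0) for 6 heat resistant (blue) and 6 heat stressed (red) libraries. Heat resistant library 6 (0.26) and heat stressed library 5 (0.15) are highest, and heat resistant library 2 (-0.14) is lowest.

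Among 24 other miRNAs often used as blood references, all of them tested, the median SD of log2 CPM was 0.26 and the range 0.11 to 0.57. miR-151-3p (0.11), miR-320a (0.12) and miR-140 (0.13) had the smallest SDs. miR-185 (0.57), miR-25 (0.53) and miR-16a (0.52) had the largest, and their log2 fold changes were 0.32 ± 0.29, 0.55 ± 0.23 and 0.51 ± 0.24 (SE). Smaller SDs than that of miR-191 were found for 4 of the 24, than that of miR-423-5p or miR-22-3p for 5, and than that of miR-425-3p for 13. miR-191 was thus steadier than most of the list in these libraries, and miR-425-3p lay near its middle. As the members were put together as stable in these same libraries, these places describe that choice and are no test of it.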

How the data were processed

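Per the labels' protocols, blood RNA was extracted with Trizol, made into TruSeq small RNA libraries and sequenced on a HiSeq instrument, and reads of adapters, junk, common RNA families and repeats were removed with ACGT101-miR. That protocol speaks of fewer libraries than the 12 listed. The sources used here do not give the aligner, miRBase release or build. The deposited raw columns are expected counts per miRNA row, per the file headers, and 80.2% of values above 0 were whole (within 1e-06). The deposited normalized columns, a signal the authors derived by 1 factor per library, entered no test.

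The table has 2183 rows. The 202 repeat rows of a name hold equal values and were counted once, while library totals kept every row, as shared reads seem divided between rows. Expected counts were rounded. edgeR 4.0.16 in R 4.3.3 (filterByExpr, minimum count 10, TMM, robust quasi-likelihood F test, Benjamini-Hochberg at 0.05, 2-sided) was fitted to all features, with DESeq2 1.42.0 and limma 3.58.1 as alternatives, and was tested on simulated data. SE is the log2 fold change over the root of F. Log2 CPM used a prior count of 2. Arm ratios used summed rows of each arm plus 2, for hairpins whose arms both had a median count of 10 or more. The plain name miR-191 was read as the 5' arm. Exact permutations used all splits of 6 against 6, and correlations 100000 resamples. A p adjusted over the 4 hairpins alone, as planned, is not given, since they were chosen with earlier results of these data known, as were all lists; adjustment over all hairpins was added.

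Named features were the most abundant product and other arm of each hairpin, further members at 10 CPM or more, the 3 features most like each main product, and the 3 steadiest and 3 most variable of the reference list. miR-11971 and miR-425-5p's neighbours were added after their values were seen. p-values set a difference or a correlation against the variation between these libraries.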

Additional observations from a re-analysis of the deposited data

Results flagged for a closer look

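Of 58 groups of 6 values screened (levels, arm ratios and ratios between products), 1 had a sample far from the others, where chance gives about 1 in 20. It was miR-425-3p in the heat stressed cows, where library 5 had 1309.6 CPM and the next highest library 1075 CPM, a gap of 0.684 of the group's range against a critical value of 0.625. In that library the 3' arm held 57.0% of the miR-425 counts.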

How the results depend on the processing

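The count of features called, 0 with edgeR, was 54 with DESeq2, 11 with no filter, 13 with repeat rows summed and 8 with the replicate number as a block (replicate block), and 0 with limma-voom, DESeq2 size factors, library totals, totals without the 10 most abundant features or scaling to the 4 miRNAs. It ran from 0 to 94 when 1 library was left out, with 94 without heat resistant library 4, 37 without heat stressed library 2 and 2 without heat resistant library 5. No member was called in any of these fits. The share of all features called was 7.14% with DESeq2, 0.556% with no filter, 1.68% with repeat rows summed and 1.06% with the replicate block. It was 12.2% without heat resistant library 4, 4.8% without heat stressed library 2, 0.259% without heat resistant library 5 and 0% in the rest. With shares this low, the absence of called members says little about them in particular. The cause of the changes in the count of features called was not tested. The replicate numbers name cows and pair nothing: same-numbered libraries had correlations of deviations from -0.05 to 0.28, and 2 of 6 matched best with their own number. With pairs of the same number (replicate block) the exact sign-flip permutation p of the arm ratio was 0.0625 for miR-191 (difference 0.36) and 0.0313 for miR-423, the smallest that 6 pairs allow.

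With 1 library left out the difference in arm ratio ran from 0.25 to 0.31 for miR-423 (exact permutation p = 0.00433 throughout). That p was fixed in advance, since the groups did not overlap with all libraries in, and it is the smallest such a split can give. The difference ran from 0.30 to 0.41 for miR-191 (exact permutation p from 0.0130 to 0.0303), from 0.04 to 0.26 for miR-425 and from 0.0011 to 0.083 for miR-22. Without heat resistant libraries 1 and 2, chosen after seeing the data, the difference in arm ratio was 0.27 for miR-191 and turned to -0.011 for miR-22. In limma across 152 hairpins the differences of 0.36 for miR-191 and 0.28 for miR-423 had an adjusted p of 0.264. Left-out SDs over the libraries ran from 0.11 to 0.16 for miR-191, from 0.14 to 0.18 for miR-423-5p, from 0.15 to 0.23 for miR-22-3p (0.12 without heat resistant libraries 1 and 2) and from 0.18 to 0.30 for miR-425-3p. Over 23 alternatives log2 fold changes kept their sign for miR-191-3p, miR-425-5p, miR-423-5p and miR-423-3p and took both signs for the other 4 arms.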
